A study of Mus musculus with 4 samples.

Results

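The 10 genes H19, Igf2, Dlk1, Meg3, Peg10, Peg3, Mest, Cdkn1c, Phlda2 and Grb10, which are read from a single parental copy and act on growth before birth, were followed through the caudal region of the E8.5 mouse embryo. They were chosen by name, as the rows of the count matrices that carry these symbols, and they are 10 of the 31055 genes in the matrices. All 10 were found and all were detected in every library. The cells came from WT and Grhl3-null embryos of a Grhl3+/- intercross, and the study profiled them by droplet-based 3′ scRNA-seq to follow the populations that take part in neural tube closure. Caudal regions of 5 WT embryos were dissociated with trypsin and pooled, those of 3 Grhl3-null embryos likewise, and each pool was run in 2 reactions, which gave 4 libraries. All embryos were C57BL/6, and the null embryos lacked Grhl3 in all tissues. Replicates 1 and 2 of a genotype therefore came from the same embryos, and the p-values below set 1 pool against another and say nothing of how embryos of a genotype vary.

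In an imprinted gene the copy from the mother or from the father is silenced by marks laid down in the germ line, so that a cell reads a single copy. Several genes read from the father's copy promote growth of the embryo or of the placenta, among them Igf2, which encodes a secreted growth factor, whereas several genes read from the mother's copy restrain it, among them Cdkn1c, which encodes the cell cycle inhibitor p57. As the embryos were of a single inbred strain, reads of the maternal and the paternal copy could not be told apart, and the values below are the sum of both copies.

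The 10 genes lie at 7 places in the genome. In GENCODE coordinates on GRCm38 (mm10), H19 (chr7:142575529-142578143, minus strand) and Igf2 (chr7:142650766-142666816, minus strand) were 72622 bases apart. Further along the same chromosome, Cdkn1c (chr7:143458339-143461050, minus strand) and Phlda2 (chr7:143501545-143503150, minus strand) were 40494 bases apart. Dlk1 (chr12:109452823-109463336, plus strand) and Meg3 (chr12:109541001-109571726, plus strand) were 77664 bases apart. The others stood alone in the set: Peg10 (chr6:4747306-4760517, plus strand), Mest (chr6:30723547-30748465, plus strand), Peg3 (chr7:6703892-6730431, minus strand) and Grb10 (chr11:11930508-12038683, minus strand). H19 and Meg3 are annotated as long noncoding RNAs and the other 8 as protein coding genes. Igf2 needs a caution: 99.7% of its last 1000 exonic bases, where 3′ reads fall, overlap exons of Gm49394 on the same strand. Reads that match several genes are not counted by Cell Ranger, and Gm49394 itself had 1 to 4 UMIs per library, so the Igf2 values below are uncertain and may hold a small part of its transcripts. No other member shared exonic bases with a gene of the same strand.

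These loci also carry microRNAs. The mature sequences within the members are shown because they are the short RNA products of H19, Igf2, Meg3 and Mest, and none of them is measured by a 3′ library of polyadenylated RNA. Capitals mark the seed, bases 2 to 8, through which a microRNA pairs with its targets, and the sequences are from RefSeq on GRCm38.p6.
mmu-miR-675-5p (exon of H19, chr7:142577112-142577133, minus strand): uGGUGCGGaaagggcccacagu
mmu-miR-675-3p (exon of H19, chr7:142577078-142577099, minus strand): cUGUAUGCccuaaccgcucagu
mmu-miR-483-5p (intron of Igf2, chr7:142654968-142654989, minus strand): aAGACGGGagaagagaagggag
mmu-miR-483-3p (intron of Igf2, chr7:142654932-142654952, minus strand): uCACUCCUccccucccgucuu
mmu-miR-1906 (exon of Meg3, chr12:109544588-109544609, plus strand): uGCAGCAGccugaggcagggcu
mmu-miR-770-5p (exon of Meg3, chr12:109563710-109563731, plus strand): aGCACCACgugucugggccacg
mmu-miR-770-3p (exon of Meg3, chr12:109563744-109563765, plus strand): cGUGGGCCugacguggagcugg
mmu-miR-335-5p (intron of Mest, chr6:30741314-30741336, plus strand): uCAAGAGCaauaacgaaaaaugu
mmu-miR-335-3p (intron of Mest, chr6:30741354-30741375, plus strand): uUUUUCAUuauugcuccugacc
The 9 sequences have 9 different seeds.

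Of 24239 barcodes, 20198 cells passed the filters of the study (at least 3000 genes and 7500 UMIs, at most 7% mitochondrial UMIs), between 4781 and 5459 per library, with a median of 33391 to 38070 UMIs per cell. Grhl3 was at 3.87 and 3.64 CPM (counts of a gene scaled to a common total per library) in the WT libraries and at 0.0531 and 0.0667 CPM in the Grhl3-null libraries, as labelled. Libraries shared at most 16 barcodes. The pools differed in further ways that bear on every genotype comparison below. Among cells whose sex could be read from Xist and 4 Y-linked genes, male cells made up 26.5% and 27.0% in the WT libraries and 55.6% and 57.5% in the Grhl3-null libraries. Male and female cells of a pool come from different embryos, so that sex and embryo cannot be told apart. Pre-somitic mesoderm-like cells numbered 509 and 492 in the WT libraries and 6 and 4 in the Grhl3-null libraries, and 983 of the WT ones were female against 2 male. The summed level of 12 posterior Hox genes was 109 and 113 CPM against 24.5 and 23.8 CPM, that of 10 visceral endoderm genes 38.8 and 41.1 CPM against 97.3 and 100.1 CPM. The part of these differences in the results was not tested, except where values split by sex or by class are given.

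Clustering without the 10 genes gave 17 clusters, joined into 16 classes. Of these, 14 could be named from the marker genes of the study, and "-like" marks that the names were rebuilt here. The others were left unnamed: 1 with 3227 cells, led by Prrx1, Hand2 and Foxf1 and holding markers of both mesenchyme and lateral plate mesoderm, and 1 with 531 cells, led by Lefty2 and Spin2c, with a low median depth of 16289 UMIs. They are called the Prrx1 cluster and the Lefty2 cluster here. In 14 classes every library had at least 30 cells, and only these were compared between genotypes. The pre-somitic mesoderm-like class and the primordial germ cell-like class (5 to 26 cells per library) fell short.

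The members were first compared across classes in the WT libraries, to see where in the caudal embryo each gene was read. Over the 14 tested classes the highest and the lowest were 19.3-fold to 153-fold apart for 9 of the genes and 3.01-fold for Grb10. The Mesenchyme 1-like class, led by Tbx4 and Capn6, held the highest WT level of H19, Igf2, Peg10, Phlda2 and Grb10. The Mesenchyme 2-like class, led by Col3a1, held the highest of Dlk1, Meg3 and Peg3. The name of the Mesenchyme 1-like class rests on 4 of 11 markers, of which the Prrx1 cluster held 8 and the Lefty2 cluster 5. Its summed level of 9 allantois genes, Tbx4 among them, was 1228 and 1316 CPM in the WT libraries, and the next class by its mean, the Prrx1 cluster, had 611 and 650.4 CPM. Of the tested classes, the erythroid-like class had the lowest mean for 8 genes and the neuroepithelium-like class for H19 and Dlk1. In the primordial germ cell-like class, of 14 and 5 cells, the means of Dlk1, Mest and Grb10 were lower still (2.60, 79.0 and 108 CPM). The erythroid-like low end differed between the WT libraries. The range of Mest was 30.8-fold with both libraries, 341-fold without WT replicate 1 and 326-fold without the 5% of cells with the highest doublet scores. For Meg3 these ranges were 19.3-fold, 41.8-fold and 215-fold. For Dlk1 they were 53.9-fold, 346-fold and 682-fold. Without WT replicate 1 or the highest doublet scores, the lowest class of Dlk1 was the erythroid-like one, not the neuroepithelium-like one. Grb10 stayed between 2.94-fold and 3.28-fold under these settings, chosen after seeing the data, and without WT replicate 2. Classes were clustered from the same cells, so these levels are a description with no test.

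**Figure D1:**
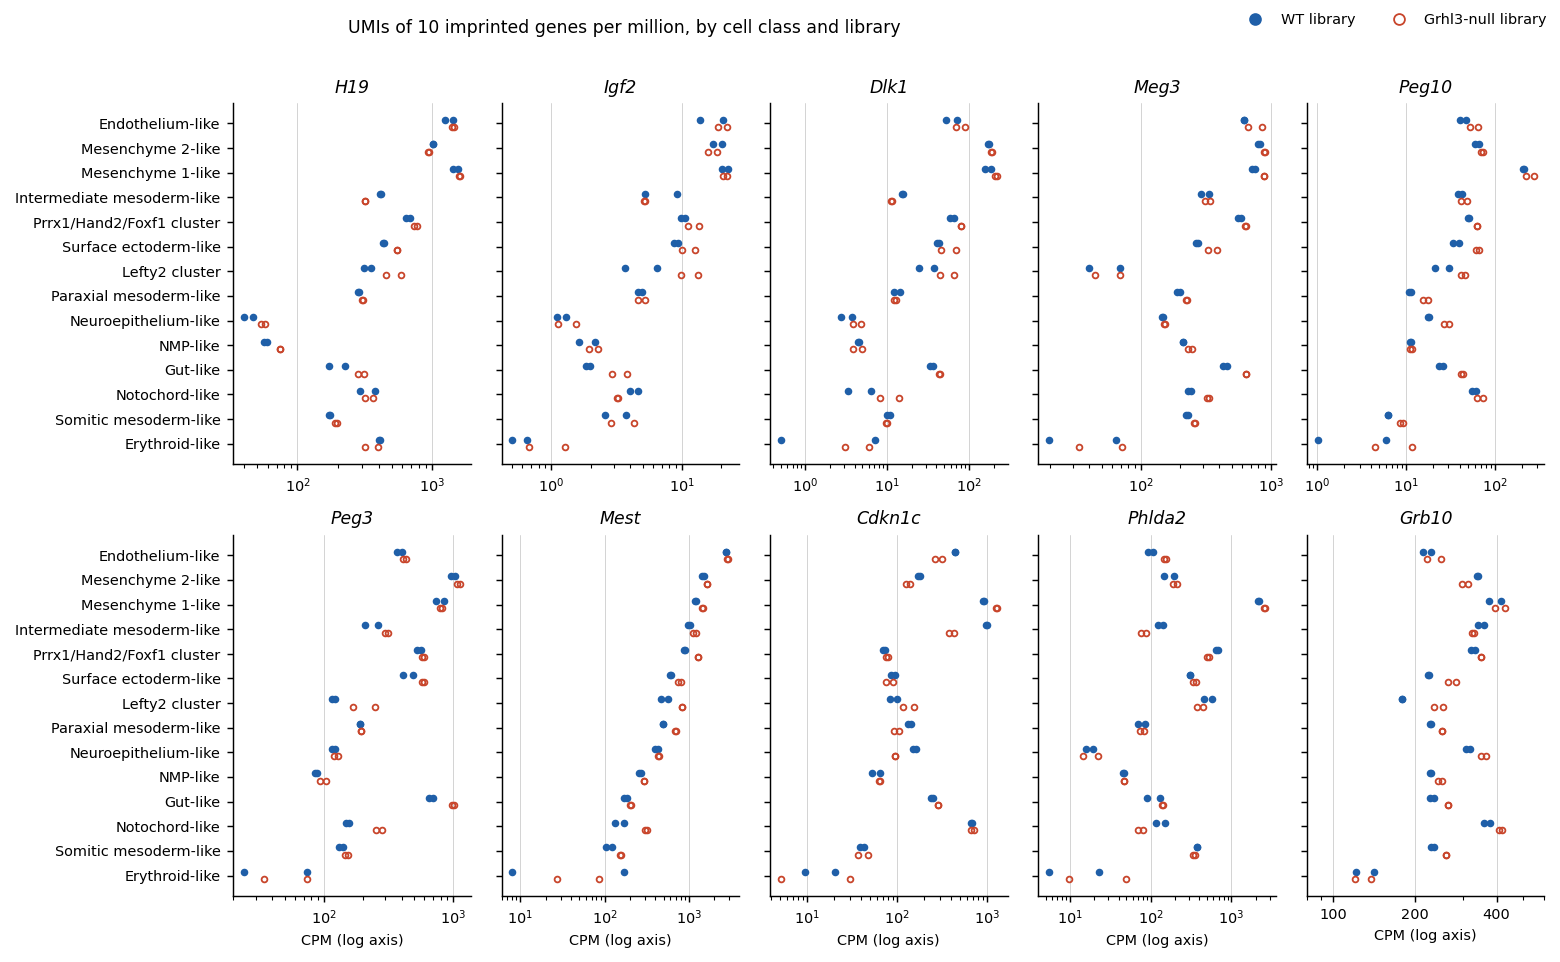
CPM of each imprinted gene (x axis, log axis) in the 14 cell classes with at least 30 cells in every library (y axis). Filled blue points are the WT libraries and open red points the Grhl3-null libraries, 2 of each per class. Phlda2 spans 14.2 to 2169 CPM between the mean WT level of the lowest and the highest class and Grb10 131 to 395 CPM.

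Among the genes read from the father's copy, Igf2 was at 22.7 and 20.2 CPM in the WT libraries of the Mesenchyme 1-like class, at 20.3 and 17.3 CPM in the Mesenchyme 2-like class and at 20.6 and 13.7 CPM in the endothelium-like class. These 3 classes overlapped and could not be ordered. The lowest Igf2 level was that of the erythroid-like class, at 0.652 and 0.504 CPM, from 2 and 1 UMIs. Dlk1, which encodes a membrane protein with EGF-like repeats, was at 172 and 174 CPM in the Mesenchyme 2-like class and at 187 and 156 CPM in the Mesenchyme 1-like class. It fell to 3.68 and 2.75 CPM in the neuroepithelium-like class. The top classes again overlapped, and the Prrx1 cluster and the endothelium-like class followed at 64.8 and 59.0 CPM and at 70.9 and 52.5 CPM.

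Peg10, a gene derived from a retrotransposon and needed in the placenta, set the Mesenchyme 1-like class apart. It was at 208 and 214 CPM there and at 66.0 and 59.3 CPM in the Mesenchyme 2-like class, which came next. Peg3, a zinc finger protein gene, was at 968 and 1039.6 CPM in the Mesenchyme 2-like class, at 740.4 and 846 CPM in the Mesenchyme 1-like class and at 694 and 650.2 CPM in the gut-like class. These classes did not overlap, and no other member had the gut-like class so high in its order. Mest, which encodes an enzyme of the alpha/beta hydrolase family and has long been used as a mesoderm gene, peaked in the endothelium-like class at 2731 and 2750.2 CPM. The Mesenchyme 2-like class followed at 1427 and 1502 CPM, and the neuroepithelium-like class still held 398 and 434 CPM.

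Among the genes read from the mother's copy, H19 was at 1566 and 1438 CPM in the Mesenchyme 1-like class and at 1421 and 1240 CPM in the endothelium-like class, which did not overlap. It fell to 46.8 and 40.1 CPM in the neuroepithelium-like class, 34.6-fold under the highest class on the means. Meg3 was at 795 and 820.0 CPM in the Mesenchyme 2-like class, at 760 and 708 CPM in the Mesenchyme 1-like class and at 622 and 616 CPM in the endothelium-like class. For Meg3, Peg3 and Cdkn1c, the WT libraries of neighbouring classes in the order did not overlap in 12 of the 13 steps. For Igf2, Dlk1 and Grb10 this held in 7 of 13.

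Cdkn1c had an order of its own. It peaked in the intermediate mesoderm-like class at 974 and 995 CPM, followed by the Mesenchyme 1-like class at 935 and 918 CPM and the notochord-like class at 691 and 663 CPM, whereas the Mesenchyme 2-like class was sixth at 179 and 171 CPM. Phlda2, which encodes a small protein with a pleckstrin homology domain and limits growth of the placenta, was at 2160 and 2179 CPM in the Mesenchyme 1-like class. The primordial germ cell-like class, of 14 and 5 cells, came next at 694 and 805 CPM, and the Prrx1 cluster followed at 687 and 641 CPM. Grb10, an adaptor protein that dampens signalling from the insulin and IGF receptors, had the narrowest range over the tested classes, from 414 and 375 CPM in the Mesenchyme 1-like class to 141 and 121 CPM in the erythroid-like class.

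The range from the highest to the lowest class, with 1 CPM added to both, was set beside that of all 7724 genes with at least 20 CPM in some class, whose median was 2.65-fold. Grb10 was near the middle of these genes, at percentile 55.2, and the other 9 members stood between 84.9 (Igf2) and 99.4 (Phlda2). The members are not ranked among themselves here, because their low ends moved with 1 erythroid-like library and with the doublet scores.

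In single cells Grb10 and Igf2 were the extremes. At least 1 Grb10 UMI was found in 99.2% ± 0.205 of WT cells and at least 1 Igf2 UMI in 19.3% ± 1.07 (SD, n = 2 libraries). After every cell was thinned to 7500 UMIs, these shares were 82.7% and 4.71%. In the thinned cells of the Mesenchyme 1-like class, Dlk1 was found in 63.4% and Phlda2 in 99.2%. In those of the neuroepithelium-like class the shares were 2.58% and 6.71%. Erythroid-like cells served as a gauge of free RNA: after thinning, Igf2 was found in 0%, Dlk1 in 2.47% and Phlda2 in 4.94% of them, so that neither share of the neuroepithelium-like class is read as expression (2.58% ± 0.909 against 2.47% ± 0.666 for Dlk1 and 6.71% ± 1.79 against 4.94% ± 1.33 for Phlda2, SD, n = 2 libraries). Their WT median depths before thinning were 40083 and 36345.5 UMIs, against 35177.5 and 35519 UMIs in the neuroepithelium-like class. The erythroid-like WT libraries also differed from each other. Mest was at 170 CPM in replicate 1 and at 8.06 CPM in replicate 2. Without the 5% of cells with the highest doublet scores in every library, it was at 11.04 and 7.03 CPM. The WT mean of Phlda2 in these cells likewise fell from 14.2 to 5.30 CPM. The shares above were taken with those cells kept. The gauge may therefore hold more than free RNA, and it does not decide whether the neuroepithelium-like shares are free RNA.

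A level of a gene in a class and the number of its cells together set where its UMIs come from. The Prrx1 cluster, with 14.9% of all WT UMIs, gave the largest share of the WT UMIs of H19 (26.5%), Igf2 (24.6%), Meg3 (25.5%), Peg10 (27.9%), Peg3 (25.1%), Mest (23.5%), Phlda2 (40.2%) and Grb10 (18.5%). For Dlk1 the largest share, 34.4%, came from the Mesenchyme 2-like class, which had 7.07% of all UMIs. For Cdkn1c the largest shares were close to each other: the intermediate mesoderm-like class gave 11.4% from 1.67% of all UMIs, and the gut-like class 10.6%.

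Likeness between members was described by Pearson's r of log2(CPM + 1) over the 14 classes, which share libraries and differ in depth. Dlk1 and Peg3 were the most alike in WT (r = 0.89, with 0.87 in Grhl3-null) and Igf2 and Dlk1 in Grhl3-null (0.93, with 0.87 in WT), and H19 and Grb10 were the least alike in both (0.18 and 0.08). Of the neighbours on a chromosome, r was 0.81 and 0.86 for H19 and Igf2, 0.70 and 0.64 for Dlk1 and Meg3, and 0.32 and 0.40 for Cdkn1c and Phlda2. Meg3 was more like Peg3, on another chromosome, at 0.87 and 0.83. The genes outside the set whose pattern was most like that of a member other than Peg10, over the same 14 classes and 7714 genes, were Usp29 for Peg3 (r = 0.99), Mirg for Meg3 (0.98), 1700017B05Rik for Dlk1 (0.97), Zcchc11 for Grb10 (0.93), Tmem230 for Phlda2 (0.92), Asb4 for Cdkn1c (0.92), Slc38a4 for Igf2 (0.91), Rheb for Mest (0.90) and Adgra2 for H19 (0.85). Second in likeness were B4galt6, Rdx, Prdm6, Caml, Crispld1, Slc50a1, Btbd1, Coro2b and Ssbp4 in the same order of members, with r from 0.84 to 0.94. Usp29, Mirg, Asb4 and Slc38a4 stand on the lists of other imprinted genes used below.

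**Figure D2:**
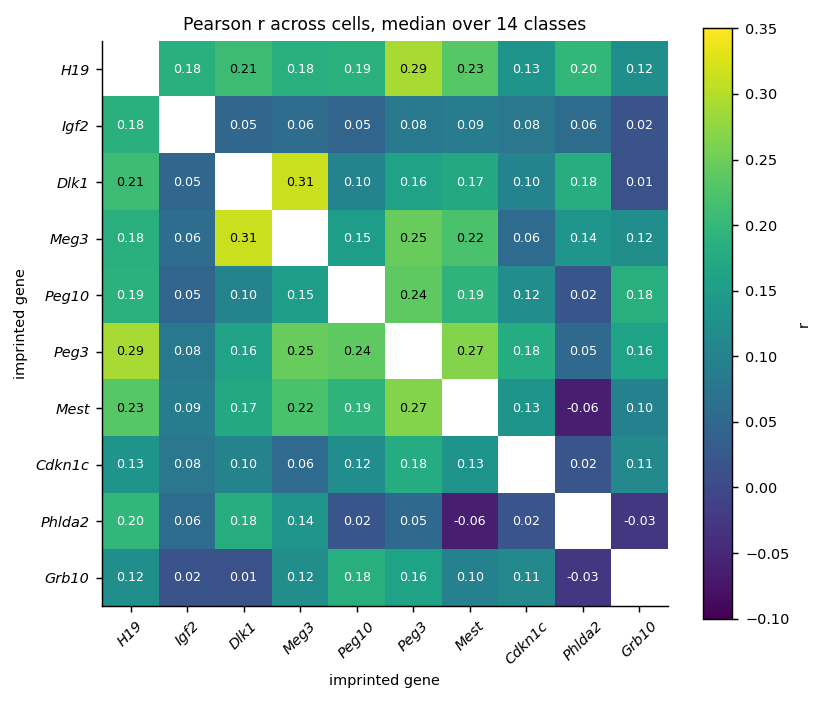
Pearson's r between pairs of imprinted genes (both axes) across the cells of a class, as the median over 14 classes of the per-library values; colour and number give r. Dlk1 and Meg3 have the highest value, 0.31, and Mest and Phlda2 the lowest, -0.06.

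Within a class, most members varied together weakly from cell to cell. Over the 14 classes the median r of log-normalised counts was highest for Dlk1 and Meg3, at 0.31, with a range over classes from -0.01 to 0.67, and it was positive in all 4 libraries in 12 of 14 classes. H19 and Peg3 followed at 0.29, Peg3 and Mest at 0.27 and Meg3 and Peg3 at 0.25. The other neighbours on chromosome 7 were at 0.18 (H19 and Igf2) and 0.02 (Cdkn1c and Phlda2). Thinning every cell to 7500 UMIs lowered Dlk1 and Meg3 to 0.19 and H19 and Igf2 to 0.07. Cells of a class share a library and differ in depth and counts are sparse, so these values are a description and weak values are no finding.

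The genotypes were compared first with all filtered cells of a library summed, which mixes the make-up of the tissue by class with the level within classes, so that fewer cells of a class and less RNA per cell cannot be told apart. All 10 genes were higher in both Grhl3-null libraries than in both WT libraries, but how many of all genes were so was not computed. A gene was called when the adjusted p of edgeR's quasi-likelihood test was under 0.05 and the difference at least 1.5-fold. By that rule 1 member, Peg10, was called among 10, and 5.24% of all 17168 genes tested were called. Without the fold limit 8 members passed, where 6097 of the 17168 genes (35.5%) did. No share was computed for genes with counts like those of the members.

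Peg10 was at 28.1 and 25.8 CPM in the WT libraries and at 41.7 and 44.1 CPM in the Grhl3-null libraries. Its log2 difference (Grhl3-null minus WT, as in all that follows) was 0.64 (SE 0.04, edgeR adjusted p = 4.76e-05). The call was lost without WT replicate 2 (log2 0.58) and without the pre-somitic mesoderm-like cells (0.56), both just under the fold limit, and in male cells alone (0.23). Mest was at 561 and 567 CPM against 781 and 805 CPM, a log2 difference of 0.46 (SE 0.02, edgeR adjusted p = 1.29e-05), and the libraries did not overlap. Dlk1 was at 37.1 and 34.2 CPM against 45.7 and 48.9 CPM (log2 0.38). Peg3 was at 316 and 329 CPM against 405 and 422 CPM (log2 0.33). Igf2 was at 6.56 and 5.86 CPM against 7.98 and 6.81 CPM, and its adjusted p of 0.078 in edgeR missed the threshold. The 5 genes read from the father's copy thus all lay higher in the Grhl3-null pool, by 0.22 to 0.64 on the log2 scale.

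H19 was at 375 and 373 CPM in the WT libraries and at 453 and 449 CPM in the Grhl3-null libraries (log2 0.24). Meg3 was at 329 and 337 CPM against 409 and 425 CPM (log2 0.29). Phlda2 was at 251 and 241 CPM against 282 and 266 CPM (log2 0.13), Grb10 at 263 and 266 CPM against 289 and 293 CPM (log2 0.11), and Cdkn1c at 145 and 145 CPM against 159 and 153 CPM (log2 0.08, edgeR adjusted p = 0.053). The median over the members was 0.27 and that over all genes tested 0.0026, with 50.7% of all genes above 0.

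The make-up of the tissue moved with these differences. Mesenchyme 1-like cells were 1.02% ± 0.22 of WT cells and 3.21% ± 0.34 of Grhl3-null cells (SD, n = 2 libraries), and pre-somitic mesoderm-like cells 9.47% ± 0.21 and 0.104% ± 0.028. When each class was given the same weight in all libraries, the log2 ratio of mean CPM fell from 0.67 to 0.40 for Peg10, from 0.49 to 0.31 for Mest, from 0.41 to 0.27 for Dlk1 and from 0.27 to 0.14 for H19. For Grb10 it was 0.14 before and 0.12 after. For Cdkn1c it turned from 0.11 to -0.17 and for Phlda2 from 0.16 to -0.06, so that no direction over all cells can be given for these 2 genes. All 16 classes entered these weighted values. The pre-somitic mesoderm-like class, with 6 and 4 Grhl3-null cells, and the primordial germ cell-like class were among them, although both were too small to be compared.

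The sexes of the cells moved with them as well. In male cells alone, H19 was at 448 and 455 CPM in the WT libraries and at 424 and 412 CPM in the Grhl3-null libraries, in female cells at 347 and 343 CPM against 546 and 562 CPM. The null libraries thus lay below WT in male and above it in female cells. Phlda2 showed the widest gap, with a log2 ratio of -0.56 in male and 0.85 in female cells. Dlk1 had -0.07 and 0.96, Igf2 -0.05 and 0.57, Meg3 0.04 and 0.63, and Peg10 0.24 and 1.12. Mest (0.34 and 0.66), Peg3 (0.28 and 0.49), Cdkn1c (0.36 and 0.15) and Grb10 (0.03 and 0.20) were, like Meg3 and Peg10, above 0 in both sexes. With male and female cells at equal weight in every library, a setting chosen after seeing the data, the log2 ratio of mean CPM was 0.66 for Peg10, 0.50 for Mest, 0.45 for Dlk1, 0.29 for H19 and 0.25 for Cdkn1c, beside 0.67, 0.49, 0.41, 0.27 and 0.11 with the cells as they came. The interaction of sex and genotype had an edgeR adjusted p under 0.05 for all 10 members, and for 37.5% of all genes tested.

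**Figure D3:**
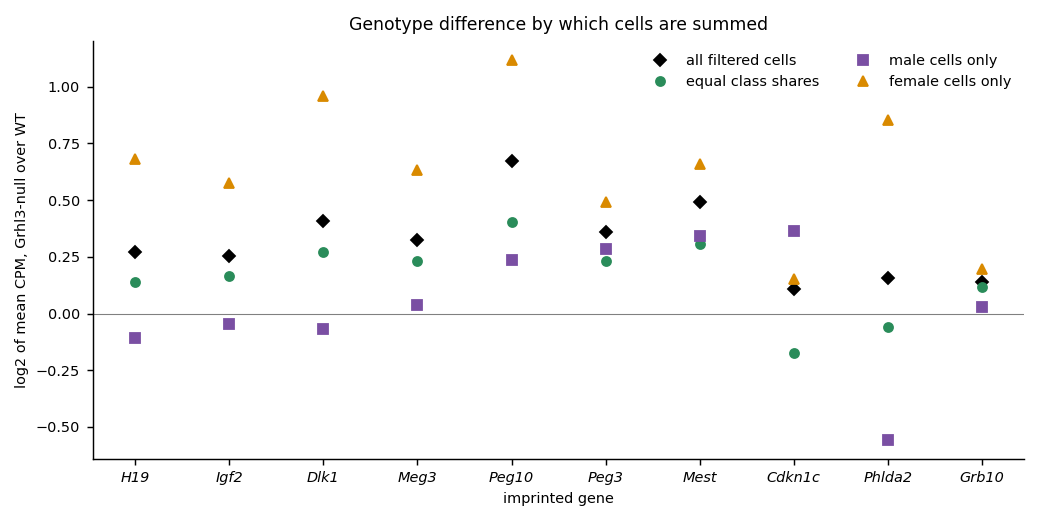
log2 of the mean CPM of the Grhl3-null libraries over that of the WT libraries (y axis) for each imprinted gene (x axis), from all filtered cells (diamonds), with every class at the same weight in all libraries (circles), and from male (squares) or female (triangles) cells alone. All diamonds lie above 0, while the squares of H19, Igf2, Dlk1 and Phlda2 lie below 0 and their triangles above it.

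Within the 14 classes, 138 of the 140 pairs of a member and a class passed the filter on low counts, the others being Igf2 in the notochord-like and erythroid-like classes. The filter asks for enough counts in a pair of libraries and so can keep a gene through 1 genotype. Of the tested pairs, 16 were called, 11 higher and 5 lower in the Grhl3-null libraries, which is 11.6%, beside 2.67% over all genes and classes. Without the fold limit 74 pairs (53.6%) were under the adjusted p threshold, 61 higher and 13 lower, beside 11.8% over all genes and classes. Small differences pass more easily at high counts, and no share was computed for genes with counts like those of the members. These gaps are therefore not read as a trait of imprinted genes. The Grhl3-null libraries lay above the WT libraries in 85 of the 140 pairs, below them in 18 and overlapped with them in 37. The share of all genes that separated in this way was not computed, so these counts are not read as a trait of the members. The genotype difference of each of the 10 members differed between classes (edgeR interaction, adjusted p between 6.79e-20 for Cdkn1c and 0.021 for Igf2), where 30% of all genes passed that test. Igf2 no longer passed it without WT replicate 1, Grhl3-null replicate 1 or Grhl3-null replicate 2, nor Dlk1 without WT replicate 2.

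**Figure D4:**
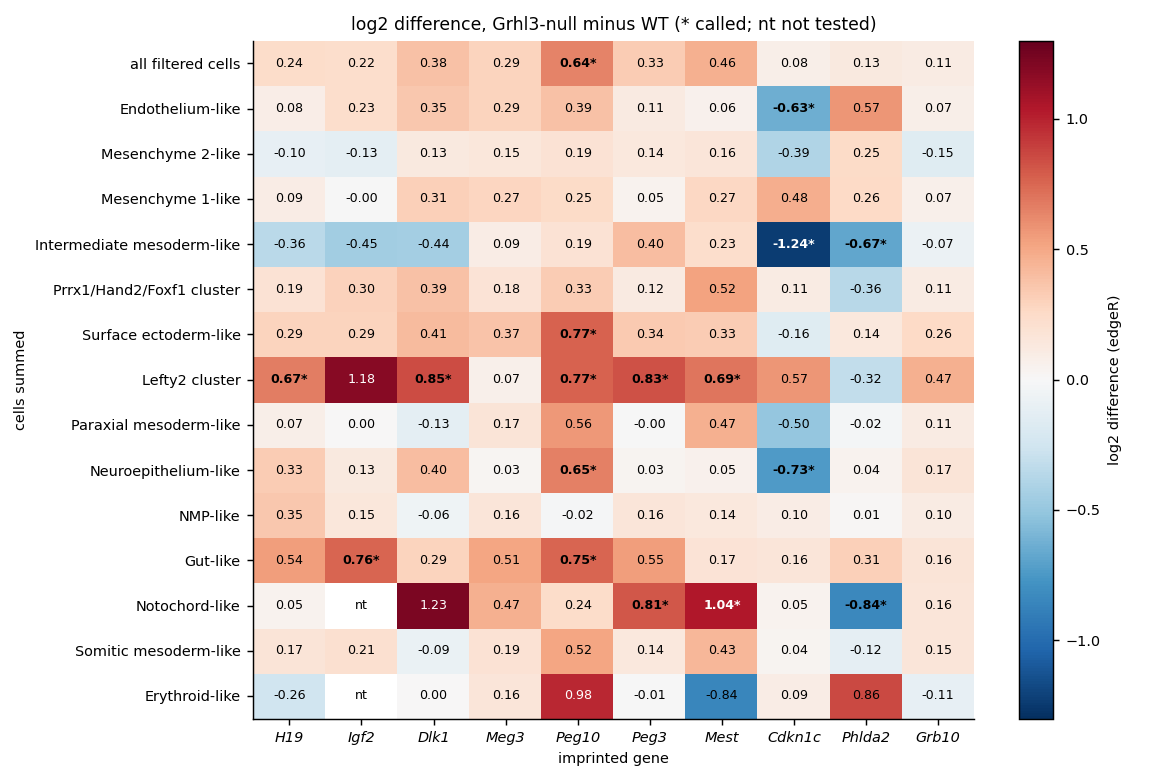
log2 difference, Grhl3-null minus WT (colour and number, edgeR), of each imprinted gene (x axis) over all filtered cells and in 14 classes (y axis); an asterisk and bold type mark calls at an adjusted p under 0.05 and at least 1.5-fold, and nt a gene that was not tested. Cdkn1c carries the most negative value, -1.24 in the intermediate mesoderm-like class, and has calls only below 0, while Peg10 has calls only above 0.

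By class, the members called and the share of all genes called were 1 and 0.315% in the endothelium-like class, 2 and 4.31% in the gut-like class, 2 and 1.63% in the intermediate mesoderm-like class, 2 and 6.12% in the neuroepithelium-like class, 3 and 1.61% in the notochord-like class and 1 and 4.07% in the surface ectoderm-like class. They were 5 and 2.79% in the Lefty2 cluster. No member was called in the other classes, where the share of all genes was 0.233% (erythroid-like), 0.306% (Mesenchyme 1-like), 6.35% (Mesenchyme 2-like), 1.82% (neuromesodermal progenitor-like), 3.02% (paraxial mesoderm-like), 1.47% (somitic mesoderm-like) and 1.64% (Prrx1 cluster). DESeq2 called no member in these classes either. At an unadjusted p under 0.05 in edgeR there were 1 in the erythroid-like class (8.61% of all genes), 6 in the Mesenchyme 1-like class (9.70%), 9 in the Mesenchyme 2-like class (32.7%), 5 in the neuromesodermal progenitor-like class (32.3%), 6 in the paraxial mesoderm-like class (34.1%), 7 in the somitic mesoderm-like class (25.7%) and 10 in the Prrx1 cluster (24.7%).

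Peg10 was the member called in most classes, 4, each time higher in Grhl3-null. In the gut-like class it was at 26.2 and 23.4 CPM in the WT libraries and at 41.8 and 44.2 CPM in the Grhl3-null libraries (log2 0.75, SE 0.07, edgeR adjusted p = 1.55e-07). In the surface ectoderm-like class, where Grhl3 itself is known to act, it was at 39.8 and 33.8 CPM against 61.9 and 67.2 CPM (log2 0.77, SE 0.07). In the neuroepithelium-like class it was at 17.9 and 17.9 CPM against 26.7 and 30.4 CPM (log2 0.65, SE 0.07). The libraries did not overlap in these classes, and the difference was above 0 in both sexes in the gut-like, surface ectoderm-like and neuroepithelium-like classes. The neuroepithelium-like call was lost without Grhl3-null replicate 2 (log2 0.56), when classes were rebuilt at resolution 0.8 (0.17) and in female cells alone (0.52). The surface ectoderm-like call was lost in female cells alone (0.50) and the gut-like call in male cells alone (0.58), in all of these but the rebuilt classes through the fold limit. In the Mesenchyme 1-like class, where Peg10 was highest, it was at 208 and 214 CPM against 224 and 274 CPM, and no call was made. In neuromesodermal progenitor-like cells the genotypes overlapped, with 11.2 and 11.4 CPM against 11.1 and 11.5 CPM.

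Mest was higher at an adjusted p under 0.05 in 11 of 14 classes, in most of them by less than 1.5-fold. In the Prrx1 cluster, the source of the largest share of its UMIs, it was at 902 and 873 CPM against 1266 and 1268 CPM (log2 0.52), with a log2 ratio of 0.49 in male and 0.53 in female cells. A call was made in the notochord-like class, at 134 and 168 CPM against 322 and 305 CPM (log2 1.04, SE 0.10, edgeR adjusted p = 2.88e-07). That value was 0.46, no longer a call, after the cells with the highest doublet scores were left out, and female notochord-like cells had 140 and 122 CPM against 161 and 123 CPM. Peg3 was called in the same class, at 149 and 157 CPM against 255 and 280 CPM (log2 0.81, SE 0.09). In the gut-like class Peg3 was at 694 and 650.2 CPM against 986 and 1025 CPM (log2 0.55). There the log2 ratio was 0.88 in male and 0.07 in female cells, and these differed (interaction, edgeR adjusted p = 3.91e-07).

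Dlk1 was called in the Lefty2 cluster alone, and Igf2 in the gut-like class alone, at 1.99 and 1.84 CPM against 3.77 and 2.91 CPM (log2 0.76, SE 0.25, edgeR adjusted p = 0.035). The Igf2 call was lost with DESeq2 and without WT replicate 1, WT replicate 2 or Grhl3-null replicate 1. In the Lefty2 cluster, 5 of 10 members were called, all higher: H19 (353 and 311 CPM against 591 and 450.5 CPM), Dlk1 (37.5 and 24.4 CPM against 66.2 and 44.7 CPM), Peg10, Peg3 and Mest, with log2 differences from 0.67 to 0.85. The cells of this cluster were shallow and 468 of its 531 cells could not be given a sex. With DESeq2 the calls of H19, Dlk1, Peg10 and Peg3 were lost, without Grhl3-null replicate 1 those of the same 4 genes, and without WT replicate 2 those of H19, Dlk1, Peg10 and Mest.

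Cdkn1c was called lower in 3 classes. Without the fold limit it was lower in 5 classes and higher in 3 at an adjusted p under 0.05. In the intermediate mesoderm-like class, its highest in WT, it was at 974 and 995 CPM in the WT libraries and at 432 and 384 CPM in the Grhl3-null libraries. This was the largest difference of any member, with a log2 difference of -1.24 (SE 0.06, edgeR adjusted p = 1.95e-17). In the neuroepithelium-like class Cdkn1c was at 161 and 151 CPM against 94.6 and 96.2 CPM (log2 -0.73, SE 0.04), and in the endothelium-like class at 442 and 442 CPM against 314 and 264 CPM (log2 -0.63, SE 0.07). The endothelium-like call was lost without Grhl3-null replicate 2 (log2 -0.51), without the filter on low counts (adjusted p = 0.198 in edgeR) and in male cells alone (log2 -0.27). Under 1.5-fold, Cdkn1c was also lower in the paraxial mesoderm-like (log2 -0.50) and Mesenchyme 2-like (-0.39) classes. In the Mesenchyme 1-like class it was higher instead, at 935 and 918 CPM against 1292 and 1266 CPM (log2 0.48, adjusted p = 7.10e-05 in edgeR, under 1.5-fold). That class held 64 male and 30 female cells in WT, and 93 and 195 in Grhl3-null, and the part of this make-up was not tested. In the notochord-like class the genotypes overlapped, at 691 and 663 CPM against 668 and 729 CPM.

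Split by sex, Cdkn1c differed widely within WT. In the intermediate mesoderm-like class it was at 1276 and 1342 CPM in WT female cells and at 152 and 241 CPM in WT male cells, of which there were 27, against 519 and 500.5 CPM in Grhl3-null male and 210 and 138 CPM in Grhl3-null female cells. Male cells were thus lower and female cells higher in WT than in Grhl3-null. The neuroepithelium-like class showed the same: WT female cells were at 178 and 177 CPM, WT male cells at 77.5 and 80.2 CPM, Grhl3-null male cells at 103 and 102 CPM and Grhl3-null female cells at 60.9 and 60.4 CPM. In male cells alone the fitted log2 difference was 0.43 there, the reverse of that over both sexes. In these 2 classes the Grhl3-null level was thus lower in female cells and higher in male cells. The make-up by sex differed as well. The intermediate mesoderm-like class held 137 female and 27 male cells in WT, and 39 and 115 in Grhl3-null. The neuroepithelium-like class held 785 and 127 in WT, and 145 and 861 in Grhl3-null. The part of this make-up in the lower Cdkn1c level over both sexes was not tested. In the endothelium-like class the log2 ratio was -0.24 in male and -0.69 in female cells.

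Phlda2 was called lower in 2 classes. In the intermediate mesoderm-like class it was at 143 and 125 CPM against 88.1 and 76.3 CPM (log2 -0.67, SE 0.09, edgeR adjusted p = 4.90e-06), a call lost without WT replicate 1 or Grhl3-null replicate 2, when the members took part in the clustering (log2 -0.23) and at resolution 0.8 (-0.43). Female cells of that class had 97.2 and 85.0 CPM in WT and 140 and 124 CPM in Grhl3-null. In the notochord-like class it was at 115 and 151 CPM against 68.9 and 81.2 CPM (log2 -0.84, SE 0.13). In the Mesenchyme 1-like class, where Phlda2 was highest, it was at 2160 and 2179 CPM against 2622 and 2523 CPM (log2 0.26), in the endothelium-like class at 107 and 92.6 CPM against 146 and 153 CPM (log2 0.57, just under 1.5-fold), and in the Prrx1 cluster at 687 and 641 CPM against 505 and 526 CPM (log2 -0.36).

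Meg3 and Grb10 were called in no class, by edgeR or by DESeq2, and had an unadjusted p under 0.05 in edgeR in 10 and 9 classes. Meg3 was above 0 in all 14 classes, from 0.03 to 0.51, and passed the adjusted p without the fold limit in 9. Its nearest to a call was the gut-like class, at 426 and 457 CPM against 643 and 645 CPM (log2 0.51). Grb10 stayed between -0.15 and 0.47. H19 was lower in the intermediate mesoderm-like class, at 419 and 410 CPM against 319 and 316 CPM (log2 -0.36), and higher in the gut-like class, at 172 and 226 CPM against 311 and 281 CPM (log2 0.54), both under 1.5-fold.

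The sexes were then compared in the 9 classes with enough cells, and the paraxial mesoderm-like class is described first. In WT it held 98 male cells, 697 female cells and 168 cells without a called sex. In Grhl3-null it held 622, 117 and 410. Cells without a called sex are left out of the values by sex, and their part was not tested. Grhl3-null cells of this class were also deeper, with medians of 52779 and 44892.5 against 37600 and 39438.5 UMIs for WT. The part of this depth was not tested either. Mest was at 304 and 300.4 CPM in WT male cells and at 839 and 835 CPM in Grhl3-null male cells, a log2 ratio of 1.47. In female cells it was at 508 and 537 CPM in WT and at 324 and 279 CPM in Grhl3-null, a log2 ratio of -0.79. Peg10 (1.38 and -0.96), Peg3 (0.92 and -1.10), Cdkn1c (0.87 and -1.52) and Meg3 (0.65 and -0.48) turned in the same way, and the interaction was called for these 5 members, beside 13.9% of all genes. All 10 members had opposite signs in the 2 sexes in this class, where 57.3% of all genes did. No other of the 9 classes had as many. The count was 8 in the Mesenchyme 2-like and 7 in the neuroepithelium-like class, 5 in the endothelium-like class and in the Prrx1 cluster, 3 in the neuromesodermal progenitor-like and somitic mesoderm-like classes and 1 in the gut-like and surface ectoderm-like classes, where the share of all genes ran from 42.8% to 61.7%. These cells were 3.97% of WT male, 10.3% of WT female, 13.6% of Grhl3-null male and 3.32% of Grhl3-null female cells, so that the level of these genes and the share of the class were both higher in WT female and Grhl3-null male cells.

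**Figure D5:**
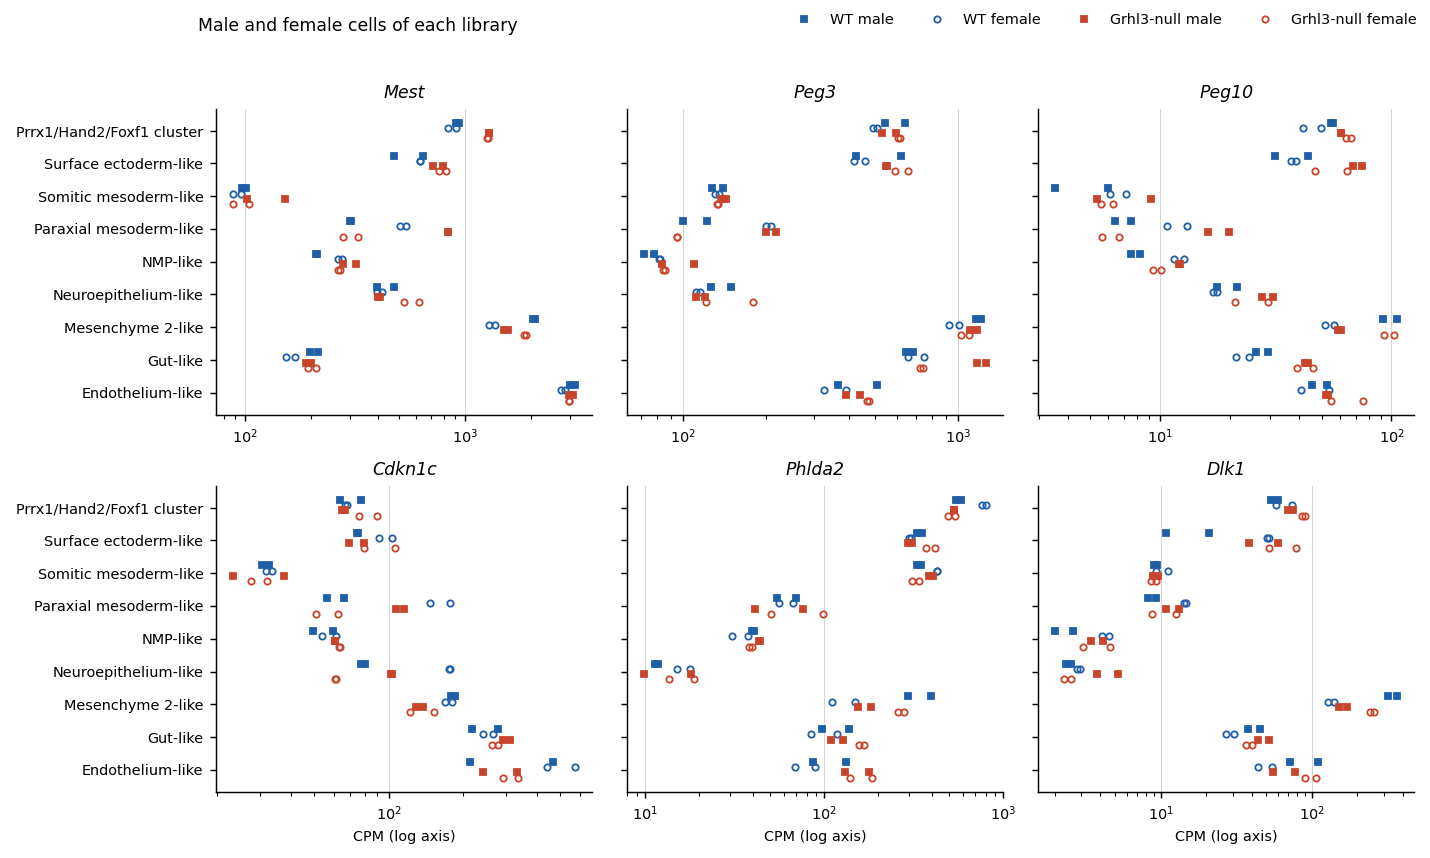
CPM (x axis, log axis) of 6 imprinted genes in male (squares) and female (circles) cells of the WT (blue) and Grhl3-null (red) libraries, 2 libraries each, in the 9 classes with enough cells of both sexes (y axis). In the paraxial mesoderm-like row Mest is at 279 to 324 CPM in WT male and Grhl3-null female cells and at 508 to 839 CPM in the others.

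In the Mesenchyme 2-like class the turn went the other way. Dlk1 was at 368 and 320.3 CPM in WT male cells and at 128 and 141 CPM in WT female cells, against 153 and 170.3 CPM in Grhl3-null male and 258 and 243 CPM in Grhl3-null female cells. Over both sexes together it was at 172 and 174 CPM against 185 and 192 CPM (log2 0.13). Phlda2 had the same signs in this class, with a log2 ratio of -1.03 in male and 1.06 in female cells, and so did Peg10 (-0.73 and 0.85) and Mest (-0.42 and 0.50). The interaction was called for 8 members there, and for 25.1% of all genes.

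In the other classes the interaction was called for 8 members in the Prrx1 cluster (16.7% of all genes), 5 in the neuroepithelium-like class (28.6%), 5 in the neuromesodermal progenitor-like class (15.4%), 4 in the surface ectoderm-like class (13.7%), 4 in the gut-like class (8.41%), 2 in the somitic mesoderm-like class (7.31%) and 2 in the endothelium-like class (1.85%). In surface ectoderm-like cells Dlk1 was at 10.9 and 20.8 CPM in WT male cells and at 50.6 and 51.9 CPM in WT female cells, against 38.4 and 59.7 CPM and 51.8 and 79.0 CPM in Grhl3-null. The WT male cells lay below all other groups.

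Other genes of imprinted domains and of the IGF axis were taken from lists, so that the members could be read beside them over all cells. There, 5.24% of all 17168 genes tested were called. Of 21 further genes listed as maternally expressed and tested, 6 were called, all higher, with a median log2 difference of 0.28, among them Klf14, Zim1 and Asb4. Of 19 further genes listed as paternally expressed, 1 was called in each direction, with a median of 0.05. Whether the genes of these lists are read from a single copy in these tissues could not be seen. The lists are therefore not set against each other as an effect of the parental copy. Zim1, next to Peg3, was at 7.89 and 7.52 CPM against 15.6 and 16.5 CPM in the gut-like class (log2 1.02). Asb4, the gene most like Cdkn1c across classes, was called in opposite directions in 2 classes. It was at 50.3 and 57.5 CPM against 122 and 85.7 CPM in the Mesenchyme 1-like class (log2 0.99) and at 58.2 and 54.7 CPM against 35.1 and 27.2 CPM in the intermediate mesoderm-like class (log2 -0.82). Plagl1, a zinc finger gene that is known to regulate other imprinted genes, was at 102 and 98.3 CPM against 62.4 and 61.5 CPM in the neuroepithelium-like class (log2 -0.71). It was higher in the paraxial mesoderm-like class (log2 0.66), from 7.60 and 9.02 CPM to 13.4 and 13.3 CPM. Klf14 (log2 1.00) and Dio3 (0.83) were called higher over all cells and Rasgrf1 lower (-1.19), all under 4 CPM. Rasgrf1 was near the floor, at 0.0882 and 0.0770 CPM against 0.0398 and 0.0334 CPM.

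The counts over all cells in this paragraph again stand beside 5.24% of all genes, and 1 gene called on a short list is no finding. On the IGF axis, 1 of 16 genes was called over all cells, with a median of 0.10: Igf1, at 2.19 and 2.42 CPM against 3.67 and 3.45 CPM (log2 0.60), which also stands on the list of paralogues. Within classes, the binding protein gene Igfbp5 was at 34.0 and 38.0 CPM against 16.3 and 21.1 CPM in the Mesenchyme 2-like class (log2 -0.93), and at 4.61 and 5.36 CPM against 18.9 and 13.2 CPM in the Lefty2 cluster (log2 1.70). Igfbp2 (log2 -0.82) and Pappa (-0.80), a protease that cuts IGF binding proteins, were lower in the intermediate mesoderm-like class. The receptor adaptors Irs1 (Mesenchyme 2-like, log2 0.70) and Irs2 (erythroid-like, 0.78) were higher. Of 8 paralogues of the members, Igf1 alone was called over all cells (median 0.11). Grb7 was higher in neuroepithelium-like cells (log2 1.00) and Phlda1 in the Lefty2 cluster (0.82). Phlda3 was lower in neuromesodermal progenitor-like cells (log2 -1.01) and higher in neuroepithelium-like cells (0.73), and Cdkn1a was lower in notochord-like cells (-0.74). Of 13 genes that lay down or keep imprints, such as Dnmt1 and Zfp57, 1 was called over all cells (median 0.07): Dppa3, a germ cell gene, at 2.36 and 1.17 CPM against 2.90 and 4.27 CPM (log2 0.98). Dppa3 is also a marker used to name the primordial germ cell-like class, which had 14 and 5 WT cells and 14 and 26 Grhl3-null cells. The part of these cell numbers in the Dppa3 difference was not tested.

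Markers of tissues that the dissection could carry along were read in the same way, beside the same 5.24% of all genes called over all cells. Visceral endoderm genes were called higher in 8 of 10 cases over all cells (median 1.23), led by Apob (log2 1.90), Ttr (1.66) and Cubn (1.51). In the gut-like class, where Igf2 and Peg10 were called, their summed level was 470 and 532 CPM in the WT libraries and 1076 and 1043 CPM in the Grhl3-null libraries, and their part in those results was not tested. Of 10 trophoblast genes 5 were tested, of which 4 were called higher, led by Rhox9, Rhox6 and Plac1, and Elf5 lower (median 0.71). The defining genes Tpbpa, Prl3d1 and Prl2c2 were at 0 in every library. Rhox9 (0.190 and 0.0498 CPM against 0.345 and 0.572 CPM) is also a marker used to name the primordial germ cell-like class. That class held the highest sum of the trophoblast genes, 74.6 and 162 CPM against 171 and 196 CPM. The calls are therefore not read as trophoblast carried along. Elf5 was at 0.441 and 0.362 CPM against 0.150 and 0.124 CPM. Of the posterior Hox genes 10 were tested and 6 called lower (median -1.28), and in the neuroepithelium-like class, where Cdkn1c was lower, their sum was 171 and 159 CPM against 1.38 and 0.455 CPM. In the intermediate mesoderm-like class it was 14.4 and 6.32 CPM against 1.02 and 0.927 CPM. In the notochord-like class, where Mest, Peg3 and Phlda2 were called, it was 44.3 and 37.6 CPM against 1.08 and 4.08 CPM, and the summed level of 10 dissociation genes was 369.7 and 319.6 CPM against 229 and 242 CPM, with 7 of them lower in both Grhl3-null libraries and Junb called (log2 -2.01). Their part in these results was not tested either. Of 9 allantois genes, 2 were called higher, Tbx4 among them (median 0.15). Of 5 neural crest genes 3 were higher, among them Foxd3 and Sox10 (median 0.68). Sox10 was near the floor, at 0.0662 and 0.0725 CPM against 0.137 and 0.229 CPM. Of 10 genes induced by dissociation Fos and Fosb were lower (median -0.19). The median log2 difference of 7 haemoglobin genes was -0.04 and that of 4 tested cardiac genes -0.03. The 4 Y-linked genes were all called higher (median 0.86), as the share of male cells was.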

How the data were processed

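UMI counts of 4 droplet-based 3′ libraries were used as deposited. Per the labels and the study's methods, the authors made these counts with Cell Ranger against mm10. The study's filters were applied (at least 3000 genes and 7500 UMIs, at most 7% mitochondrial UMIs), and cells were clustered with Seurat 5.3.0 (SCTransform, merged libraries, 30 principal components, resolution 0.4) without the 10 members among the variable features. A cluster was named from the study's marker genes, without the members, by at least 3 of its 30 leading genes and over 1.5 times the markers of the next type. Scrublet's automatic threshold marked at most 0.0627% of cells, so doublets were kept and the 5% of highest scores removed as an alternative. Cells with at least 2 Y-linked and at most 2 Xist UMIs were taken as male, and with at least 3 Xist and at most 1 Y-linked UMI as female.

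Counts were summed per class and library and tested with edgeR 4.0.16 (TMM, filterByExpr, quasi-likelihood, Benjamini-Hochberg over all genes tested), in R 4.3.3. Calls needed an adjusted p under 0.05 and 1.5-fold. Levels are CPM, with mean and SD over the 2 libraries of a genotype. On simulated data the test recovered 90% of genes changed 2-fold over all cells (17168 genes, 3 false calls) and 82% in the endothelium-like class (11432 genes, 5 false calls). The simulated counts followed the kind of model that edgeR fits, with the spread between reactions of a pool. They held no difference in embryos, sex or class make-up. The simulation therefore checks the running of the test and says nothing of false calls between these pools. Alternatives were DESeq2 1.42.0, other scalings and filters, a replicate block, each library left out, single sexes and other clusterings. The text names the 10 members, the 2 genes most like each (those of Peg10 are not reported here), and of every list at most 3 called genes per direction, over all cells or in a class with a mean of at least 10 CPM. The Y-linked list served the sex calls and Grhl3 the check of the labels. Members and lists were chosen with earlier results of these data known. Intervals of sequencing error were not computed, and SDs over 2 reactions of a pool hold technical spread only.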

Additional observations from a re-analysis of the deposited data

Results flagged for a closer look

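The genotype difference differed between cell classes for 10 of the 10 members, by an interaction term in edgeR. Between male and female cells it differed, by the same kind of test, for 10 members over all filtered cells (37.5% of all genes). It did so for 8 in the Mesenchyme 2-like class (25.1%) and 8 in the Prrx1 cluster (16.7%). There were 5 each in the neuroepithelium-like (28.6%), neuromesodermal progenitor-like (15.4%) and paraxial mesoderm-like (13.9%) classes. The gut-like (8.41%) and surface ectoderm-like (13.7%) classes had 4 each, and the somitic mesoderm-like (7.31%) and endothelium-like (1.85%) classes 2 each. In the paraxial mesoderm-like class the differences of male and female cells had opposite signs: 1.47 and -0.79 for Mest, 1.38 and -0.96 for Peg10, 0.92 and -1.10 for Peg3, 0.87 and -1.52 for Cdkn1c, and 0.65 and -0.48 for Meg3 (log2 of Grhl3-null over WT). These values leave out 168 WT and 410 Grhl3-null cells of that class that had no called sex. Sex and embryo cannot be told apart in these pools.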

How the results depend on the processing

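Over all cells, 1 member was called. The count was 0 from male cells only, 0 without the pre-somitic mesoderm-like cells (chosen after seeing the data), 0 when 2-fold was asked, 6 from female cells only and 8 with no fold limit, and 0 to 1 with each library left out. Within classes, 16 pairs were called, 2 at 2-fold and 74 with no fold limit, 14 to 22 with each library left out, 11 with DESeq2 and 13 to 22 under the other alternatives. The interaction between class and genotype was called for 10 members, and for 9 with any single library left out. The Cdkn1c difference in the neuroepithelium-like class turned to 0.43 in male cells only. Over all cells with equal class shares, Cdkn1c turned to -0.17 and Phlda2 to -0.057. The cause was not tested. In single-sex fits, classes with fewer than 30 cells in a library could not be fitted. The replicate numbers are shared by the genotypes, but the reactions share only a number: with the replicate block 1 member was called over all cells and 17 pairs within classes, and the deviations of same-numbered libraries had a correlation of 0.25 over 2 pairs. Depth limits Igf2, at about 6 CPM, more than the other members.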
